A study of Homo sapiens with 6 samples.

Results

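The hnRNP and SR splicing regulators are the protein-coding genes of the GENCODE v44 annotation whose symbol starts with HNRNP or SRSF, together with *TRA2A*, *TRA2B*, *PTBP1*, *PTBP2* and *PTBP3*. The rule uses names alone, but the set was proposed with earlier results of these data known. There were 44 such genes among the 62700 genes of the tables, of which 20046 are protein-coding. By family, 27 were hnRNP genes, 12 SR genes (SRSF), 2 TRA2 genes and 3 PTBP genes. Their mRNA levels were measured by RNA–Seq of poly-A selected RNA in SK-Hep1 cells, a human cell line from a liver adenocarcinoma that the study describes as endothelial-derived. The 3 control libraries are titled as carrying a control shRNA, although their genotype label reads WT. The 3 knockdown libraries come from cells with stable lentiviral shRNA against the lncRNA *RAB30-DT*, made by puromycin selection, and their titles number them as replicates. The names of their tables leave room for different shRNAs. Whether read as replicates or not, an effect of the transcript cannot be told apart from one of the shRNA or its cell line.

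SR proteins carry RNA recognition motifs and a tail rich in arginine and serine, bind exonic enhancers and generally favour inclusion of the exon they bind. The TRA2 proteins are SR-like activators of the same kind. hnRNP proteins coat nascent transcripts, often act from exonic or intronic silencers and frequently favour skipping, and the PTBP proteins are hnRNP-type repressors that bind pyrimidine tracts. SR protein kinases such as SRPK1 and the CLKs phosphorylate the arginine and serine tails and so set where SR proteins reside and how they act. Many genes of both classes also limit their own mRNA through poison exons or retained introns that lead to decay.

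The knockdown libraries held lower mRNA levels of most of these regulators. The level is given as TPM, a measure of transcripts scaled for their length and to a fixed total in each library, and the difference between groups as a log2 fold change of TPM + 1 from limma, knockdown minus control. Of the 44 genes, 39 had a mean of at least 1 TPM and were tested among 14020 genes. By sign, 34 of the 39 were lower and 5 were higher in knockdown cells. Over all genes tested, 7531 were lower by sign and 6489 higher. The members' median log2 fold change was −0.47, against −0.04 over all genes tested, and quantile normalization brought it to −0.28. *HNRNPAB* and *TRA2B* passed an adjusted p of 0.05, so 2 members were called lower and 0 higher. Over all genes tested 0.67% were called lower and 0.371% higher. At an unadjusted p under 0.05, limma gave 24 members lower and 0 higher, where 9.7% of all genes were lower and 7.06% higher. The 3 knockdown values lay below the 3 control values without overlap for 26 members (66.7%) and above them for 0, while 13 overlapped. Among all genes tested, 13.4% lay below and 9.89% above. With median-of-ratios scaling between libraries 25 members lay below, with 12.5% of all genes. Leaving out any 1 library gave 26 to 30 members below and at most 1 above, while the share of all genes below was 15.9% to 23.9%. Values per cell were not measured: in bulk RNA, a lower share of cells of one kind and less RNA per cell cannot be told apart.

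**Figure D1:**
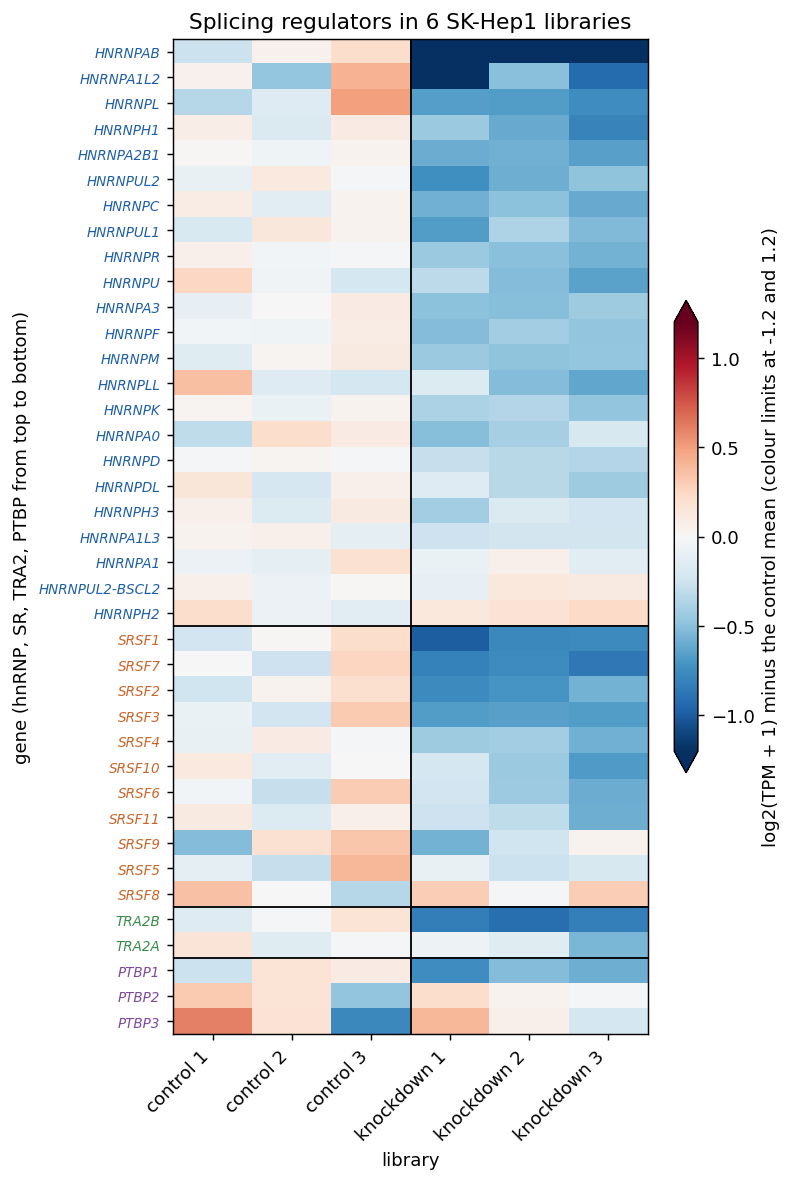
Each row is 1 of the 39 tested genes and each column 1 library; colour gives log2(TPM + 1) minus the mean of the 3 control libraries, blue for lower and red for higher, with horizontal lines between the hnRNP, SR, TRA2 and PTBP families. The 3 knockdown columns are blue in most rows, whereas rows such as *HNRNPA1*, *HNRNPH2*, *HNRNPUL2-BSCL2*, *SRSF5*, *SRSF8*, *PTBP2* and *PTBP3* are pale or mixed.

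*RAB30-DT* itself stood at 18.16, 11.51 and 13.91 TPM in the control libraries and at 11.94, 10.85 and 6.5 TPM in the knockdown libraries. The groups overlapped, with a log2 fold change of −0.55 (limma, standard error 0.27, adjusted p = 0.355). It was −0.30 without knockdown replicate 3 and −0.24 with array weights. The libraries differed in how levels followed GC content: Spearman's rho across genes was −0.607, 0.297 and 0.489 in the control libraries, by replicate number, and −0.523, 0.022 and 0.33 in the knockdown libraries. After each library's GC trend was removed, the members' median was −0.49 and 15 were called lower and 0 higher, against 5.84% of all genes called lower. limma's array weights gave 22 members called lower (13.8% of all genes). A replicate block gave 16 (3.92% of all genes), although pairing by number was unclear. All 5 endothelial markers examined were below 1 TPM, with a summed level of 0.13 to 0.22 TPM in control and 0.36 to 0.38 TPM in knockdown libraries and *KDR* at 0 TPM in each. The 5 hepatocyte markers summed to 18.11 to 23.96 TPM in control and 28.25 to 37.19 TPM in knockdown libraries, nearly all from *SERPINA1*, with *ALB*, *TTR* and *HNF4A* at 0 TPM. The 6 mesenchymal markers, led by *VIM*, summed to 4315 to 4687 TPM in control and 5035 to 5568 TPM in knockdown libraries. These sums moved with the groups, and their part in the regulators' levels was not tested. Single genes carried the shifts. Of the endothelial markers only *VWF* was higher without overlap (mean 0.11 TPM in control and 0.32 TPM in knockdown libraries). Of the mesenchymal markers only *VIM* and *CD44* were, and the others overlapped.

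*HNRNPAB* showed the largest difference of the 39 genes tested, and *TRA2B* was the only other member called. *HNRNPAB* (ENSG00000197451.12; hg38, chromosome 5, bases 178204533 to 178211163, plus strand) encodes an hnRNP of the A/B group that binds single-stranded nucleic acids. *TRA2B* (ENSG00000136527.19) maps to chromosome 3, bases 185914558 to 185938103, minus strand. Their promoters are shown because these 2 members passed the adjusted threshold. The sequences are the 250 bases before the RefSeq start (GRCh38.p14), at chr5:178204283-178204532 on the plus strand and chr3:185938015-185938264 on the minus strand. Capitals mark matches to the CCAAT box, to the TATA box as TATAAA and to TGACG, the core of a cAMP response element, also where it is on the opposite strand and reads CGTCA.
HNRNPAB: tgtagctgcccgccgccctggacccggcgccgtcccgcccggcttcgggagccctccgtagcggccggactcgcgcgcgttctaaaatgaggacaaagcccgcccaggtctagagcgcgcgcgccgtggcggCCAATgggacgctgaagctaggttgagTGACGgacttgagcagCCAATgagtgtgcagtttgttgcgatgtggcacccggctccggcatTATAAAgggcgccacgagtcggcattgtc
TRA2B: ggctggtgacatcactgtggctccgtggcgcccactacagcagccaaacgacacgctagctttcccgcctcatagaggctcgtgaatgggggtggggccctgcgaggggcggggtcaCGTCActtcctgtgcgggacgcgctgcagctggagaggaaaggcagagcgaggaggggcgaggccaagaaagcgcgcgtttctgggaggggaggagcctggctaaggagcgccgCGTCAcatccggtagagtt
In the *HNRNPAB* promoter, CCAAT starts 118 and 75 bases, TGACG 91 bases and TATAAA 29 bases before the start, all on the gene's strand. In *TRA2B* the 2 matches are to TGACG on the opposite strand, 133 and 19 bases before the start. The RefSeq start of *TRA2B* lies inside the gene as placed above, and so does the match 19 bases before it.

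*HNRNPAB* was at 256.75, 317.75 and 355.19 TPM in the control replicates and at 61.04, 64.94 and 77.29 TPM in the knockdown replicates. The highest knockdown value was far below the lowest control value. Means were 309.9 ± 49.7 TPM for control and 67.8 ± 8.48 TPM for knockdown libraries (SD, n = 3 each), and the log2 difference was −2.17 (limma, standard error 0.18, adjusted p = 0.00444). The call held in every alternative fit, with an adjusted p of at most 0.0387 when 1 library was left out. *PHYKPL*, an enzyme gene on the opposite strand that overlaps it, averaged 14.1 TPM in control and 18.6 TPM in knockdown cells.

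*TRA2B*, whose protein activates exons with purine-rich enhancers, was at 241.59, 266.75 and 300.6 TPM in control and 150.44, 143.1 and 151.39 TPM in knockdown cells. The knockdown values sat close together below all control values. The mean fell from 269.6 ± 29.6 TPM to 148.3 ± 4.54 TPM (SD, n = 3 each), with a log2 fold change of −0.85 (standard error 0.14, adjusted p = 0.0415 from limma). This call is near the threshold: with single libraries left out the adjusted p from limma ran from 0.0213 to 0.226, and it passed only without control replicate 1. Its paralog *TRA2A*, with a closely related role, differed by −0.25 (standard error 0.19), and its groups overlapped.

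**Figure D2:**
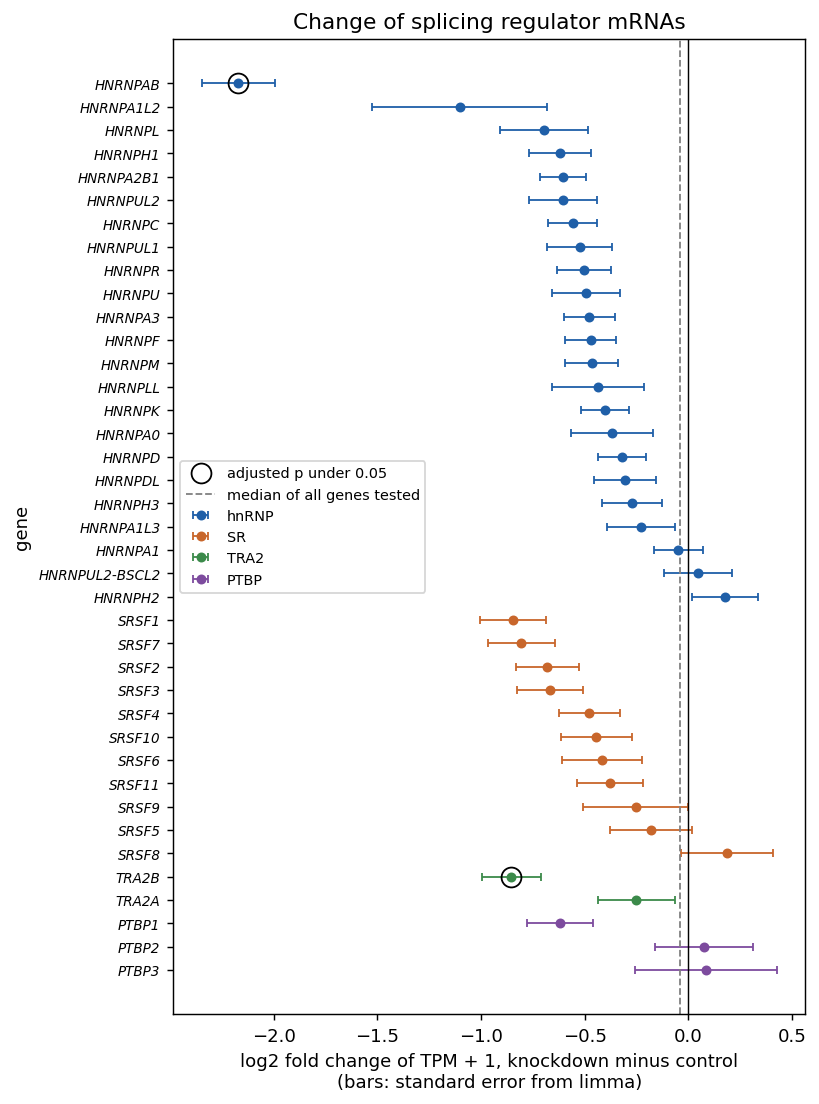
Points give the log2 fold change of TPM + 1, knockdown minus control, for each of the 39 tested genes, grouped and coloured by family, with the standard error from limma as bars; open circles mark an adjusted p under 0.05 and the dashed line the median of all genes tested. *HNRNPAB* at −2.17 stands apart, and *TRA2B* at −0.85 is the other circled gene.

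Within the hnRNP family 23 of 27 genes were tested. Of these, 21 were lower by sign and 2 higher, and the median log2 fold change was −0.47. Knockdown values lay below all control values for 17 (73.9%). Over all genes tested 13.4% lay below, and 27.4% of those at 200 TPM and over. *HNRNPA2B1*, whose protein binds exonic silencers and sorts RNAs for transport and packaging, was at 742.95, 710.68 and 756.94 TPM in control and 488.26, 493.96 and 469.39 TPM in knockdown cells. Its groups were well separated, with a log2 fold change of −0.61 (limma, standard error 0.11, adjusted p = 0.0525). *CBX3*, which overlaps it on the opposite strand, averaged 235 TPM in control and 229 TPM in knockdown cells. *HNRNPC*, which binds uridine tracts and keeps intronic Alu elements out of mRNA, was at 801.41, 687.81 and 779.47 TPM in control and 504.47, 537.67 and 495.79 TPM in knockdown cells. *HNRNPK*, a protein of KH domains that binds cytidine-rich RNA, was at 597.44, 550.82 and 600.97 TPM in control and 448.54, 455.58 and 418.82 TPM in knockdown cells. Neither gene's groups overlapped, and neither passed the adjusted threshold, with log2 fold changes of −0.56 (standard error 0.12) and −0.40 (standard error 0.12).

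*HNRNPL*, a regulator that binds CA repeats, was at 382.59, 436.19 and 685.45 TPM in control and 305.77, 304.97 and 288.43 TPM in knockdown cells. Control replicate 3 was well above the other control libraries, and the groups still did not overlap. limma gave a log2 fold change of −0.69 (standard error 0.21, adjusted p = 0.161), and with 1 library left out it ran from −0.87 to −0.45. *HNRNPH1*, which binds runs of guanines, was at 522.2, 436.78 and 527.78 TPM in control and 363.53, 323.66 and 282.94 TPM in knockdown cells, again without overlap (log2 fold change −0.62, standard error 0.15). *HNRNPA3*, an A/B-group protein, was at 419.07, 449.46 and 482.06 TPM in control and 319.19, 315.51 and 333.87 TPM in knockdown cells, also without overlap (log2 fold change −0.48, standard error 0.12). The other hnRNP genes whose groups did not overlap were *HNRNPU*, *HNRNPUL1*, *HNRNPUL2*, *HNRNPR*, *HNRNPF*, *HNRNPM*, *HNRNPD*, *HNRNPH3*, *HNRNPA1L2* and *HNRNPA1L3*. *HNRNPUL2* had the most negative log2 fold change of the first 8 of these, −0.60, and *HNRNPH3* the least, −0.27. Among them *HNRNPU* encodes a scaffold attachment factor and *HNRNPD* a protein of AU-rich mRNA decay. *HNRNPLL*, *HNRNPA0* and *HNRNPDL* overlapped between the groups, with log2 fold changes of −0.44, −0.37 and −0.30.

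*HNRNPA1*, the most abundant member and the classic antagonist of SRSF1 in splice site choice, had overlapping levels in the groups. It was at 1946.41, 1899.29 and 2317.65 TPM in control and 1935.45, 2138.03 and 1876.91 TPM in knockdown cells. Control replicate 3 was the highest and control replicate 2 close to the lowest value, with a log2 fold change of −0.05 (limma, standard error 0.12, adjusted p = 0.876). Its sign changed to positive with array weights and without control replicate 3. *HNRNPA1* has many processed copies in the genome that share reads with it, so its level is uncertain by what the authors' counting assigned to them. The 74 pseudogenes named for it summed to 30.75 to 39.46 TPM in control and 23.59 to 24.66 TPM in knockdown libraries, which is small beside the gene itself. *HNRNPA1L2*, an expressed copy of it on chromosome 13, was at 2.83, 1.69 and 3.94 TPM in control cells and listed at 0, 1.62 and 0.96 TPM in knockdown cells. Its knockdown values were all lower, but 1.62 and 1.69 TPM lie side by side, and the log2 fold change of −1.10 (standard error 0.42) rests on very low levels. It passed the filter of 1 TPM through the control libraries alone (mean 2.82 TPM, against 0.86 TPM in knockdown libraries), and it is among the members counted above as lower and without overlap. The 4 *HNRNPCL* genes, copies of *HNRNPC*, were listed at 0 TPM in every library.

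*HNRNPH2* and the readthrough gene *HNRNPUL2-BSCL2* were the 2 hnRNP genes with a higher mean log2 value in knockdown cells. *HNRNPH2*, which encodes a protein closely related to that of *HNRNPH1*, was at 77.54, 64 and 60.76 TPM in control and 73.32, 75.97 and 78.72 TPM in knockdown cells. The ranges overlapped, and the log2 fold change was 0.18 (standard error 0.16). It shares exons on the X chromosome with the readthrough gene *RPL36A-HNRNPH2*, which was at 640.58, 0 and 71.91 TPM in control and 724.95, 441.94 and 223.89 TPM in knockdown libraries. Reads of the 2 genes may have been split differently between libraries, and how much was not tested. *HNRNPUL2-BSCL2*, a transcript that runs from *HNRNPUL2* into the next gene, was at 29.2, 26.45 and 28.12 TPM in control and 26.08, 30.58 and 30.08 TPM in knockdown cells, with overlap (log2 fold change 0.05, standard error 0.16). *HNRNPUL2*, whose exons it includes, averaged 46.4 ± 3.46 TPM in control and 30.3 ± 2.68 TPM in knockdown cells (SD, n = 3 each).

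Of the 12 SR genes 11 were tested, with 10 lower and 1 higher by sign, 0 called and a median of −0.44. The groups did not overlap for 7 (63.6%), all lower, where 13.4% of all genes tested lay below. *SRSF1*, the founding SR protein, was at 316.56, 376.48 and 430.98 TPM in control and 186.91, 216.37 and 217.81 TPM in knockdown cells. *SRSF7*, which binds GA-rich enhancers and takes part in mRNA export, was at 282.06, 237.16 and 337.99 TPM in control and 160.88, 167.47 and 155.97 TPM in knockdown cells. Both were separated without overlap and missed the adjusted threshold narrowly, at −0.84 (standard error 0.16, adjusted p = 0.0559 from limma) for *SRSF1* and −0.81 (standard error 0.16, adjusted p = 0.066 from limma) for *SRSF7*. *SRSF2*, which also acts in transcription elongation, was at 370.85, 451.27 and 500.19 TPM in control and 257.48, 267.55 and 294.56 TPM in knockdown cells. *SRSF3*, the smallest classical SR protein and an export adaptor, was at 527.84, 477.46 and 694.31 TPM in control and 350.57, 355.1 and 351.86 TPM in knockdown cells. In both genes every knockdown value was below every control value, with log2 fold changes of −0.68 (standard error 0.15) and −0.66 (standard error 0.16).

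The remaining SR genes had smaller differences. *SRSF4*, *SRSF10* and *SRSF11* did not overlap between the groups and had log2 fold changes of −0.48, −0.44 and −0.38. *SRSF6*, *SRSF9* and *SRSF5* overlapped, at −0.42, −0.25 and −0.18. With 1 library left out *SRSF9* ran from −0.51 to −0.085 and *SRSF5* from −0.32 to 0.02. *SRSF9* overlaps *DYNLL1* on the opposite strand, which averaged 538 TPM in control and 477 TPM in knockdown cells. *SRSF8*, a gene close in sequence to *SRSF2*, was the SR gene with a positive log2 fold change, 0.19 (standard error 0.22). It was at 33.62, 26.03 and 20.41 TPM in control and 32.23, 25.73 and 32.42 TPM in knockdown cells, with overlap. *SRSF12* was near 0 TPM and was not tested.

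In the PTBP family *PTBP1*, the broadly expressed repressor, differed from its paralogs in the sign of its log2 fold change. *PTBP1* was at 257.49, 343.59 and 328.3 TPM in control and 182.46, 213.57 and 204.47 TPM in knockdown cells, without overlap (log2 fold change −0.62, standard error 0.16, adjusted p = 0.112 from limma). *PTBP2*, the form known from neurons, was at 23.1, 20.7 and 12.97 TPM in control and 21.51, 18.96 and 18.08 TPM in knockdown cells. *PTBP3* was at 93.15, 68.99 and 35.29 TPM in control and 80.88, 63.91 and 52.71 TPM in knockdown cells. Both overlapped, and their log2 fold changes of 0.08 (standard error 0.24) and 0.09 (standard error 0.34) changed sign with array weights and without control replicate 3.

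Summed over the 44 genes, the level was 11701, 11560 and 13244 TPM in control and 8897.7, 9141.5 and 8673.0 TPM in knockdown libraries. The mean was 26.8% lower in knockdown cells, and 31.6% lower without *HNRNPA1*. The 12 SR genes summed to 2398.8, 2498.6 and 3107.6 TPM in control and 1752.1, 1798.7 and 1827.5 TPM in knockdown libraries, a mean 32.8% lower. For the 27 hnRNP genes the mean was 24.5% lower, and for the 26 without *HNRNPA1* it was 30.9% lower. The groups overlapped in none of these sums. *HNRNPA1* alone was 3.46% lower, with overlap (exact two-sided permutation p = 0.6, where 3 libraries against 3 allow no less than 0.1).

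By level, the members at 200 TPM and over shared 1 sign and the less abundant members did not. Genes were classed by the mean over all 6 libraries, so a gene's own difference can move it across a boundary. *TRA2B* and *SRSF7* were above 200 TPM in control libraries only, as were *HNRNPAB* and *HNRNPR*, which are in the class below. *HNRNPUL1*, also in the class below, was at 199.03 TPM in control replicate 1 and above 200 TPM in the other control libraries only. All 20 members at 200 TPM and over were lower by sign, 17 of them without overlap, and their median log2 fold change was −0.53. Of all 642 genes at that level 394 were lower by sign and 27.4% lay below without overlap, with a median of −0.11. Between 50 and 200 TPM, 9 of 11 members were lower by sign and 6 did not overlap, with a median of −0.42. All 2290 genes of that level had a median of −0.15, with 1544 lower by sign and 21.6% below without overlap. Between 1 and 50 TPM, 5 of 8 were lower and 3 did not overlap, with a median of −0.30. All 11087 genes of that level had a median of −0.00, with 5593 lower by sign and 10.9% below without overlap.

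**Figure D3:**
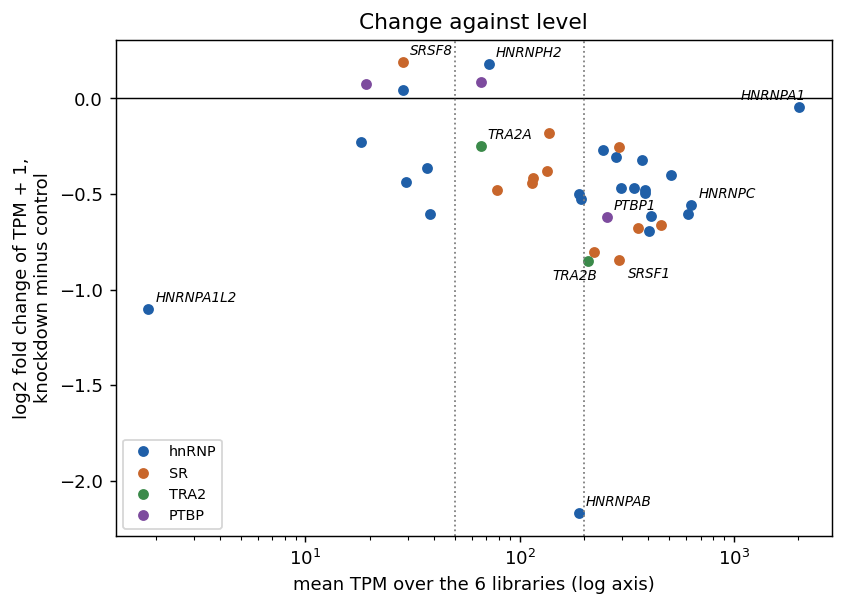
Each point is 1 tested gene, placed by its mean TPM over the 6 libraries on a log axis and its log2 fold change of TPM + 1, knockdown minus control, and coloured by family; dotted lines mark 50 and 200 TPM. All 20 points right of 200 TPM lie below 0, with *HNRNPA1* nearest to it, whereas the 5 genes above 0 all have lower levels.

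Ratios of related genes within a library hardly depend on the scaling between libraries. A library's GC trend does not cancel in them where the genes differ in GC content, as *PTBP1* (57.7%) and *PTBP3* (36.4%) do, and its part was not tested. The ratios were taken as log2 ratios of TPM + 1 for 18 pairs of paralogs or close relatives, chosen after the values of the genes had been seen. They are given as description without a test. In 7 pairs the ratio was lower in knockdown libraries without overlap, in 1 it was higher, and the others overlapped. Several genes are in more than 1 pair, and no share over other pairs of genes was taken, so these counts have no background beside them. For *HNRNPAB* against *HNRNPD* the log2 ratio was −0.68, −0.42 and −0.21 in control and −2.47, −2.33 and −2.06 in knockdown libraries. For *HNRNPH1* against *HNRNPH2* it was 2.74, 2.75 and 3.10 in control and 2.29, 2.08 and 1.83 in knockdown libraries. Neither ratio overlapped between the groups, and both shifted toward the second gene. For *HNRNPA2B1* against *HNRNPA1* the log2 ratio was −1.39, −1.42 and −1.61 in control and −1.99, −2.11 and −2.00 in knockdown libraries. For *SRSF2* against *SRSF8* it was 3.42, 4.07 and 4.55 in control and 2.96, 3.33 and 3.15 in knockdown libraries, again without overlap. The ratio of *TRA2B* to *TRA2A*, 1.59 to 2.08 in control and 1.13 to 1.63 in knockdown libraries, overlapped, as did those of *PTBP1* to *PTBP2* and to *PTBP3*. *SRSF3* against *SRSF7* was the pair with a higher ratio, by 0.14, from a mean of 0.98 to 1.12.

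**Figure D4:**
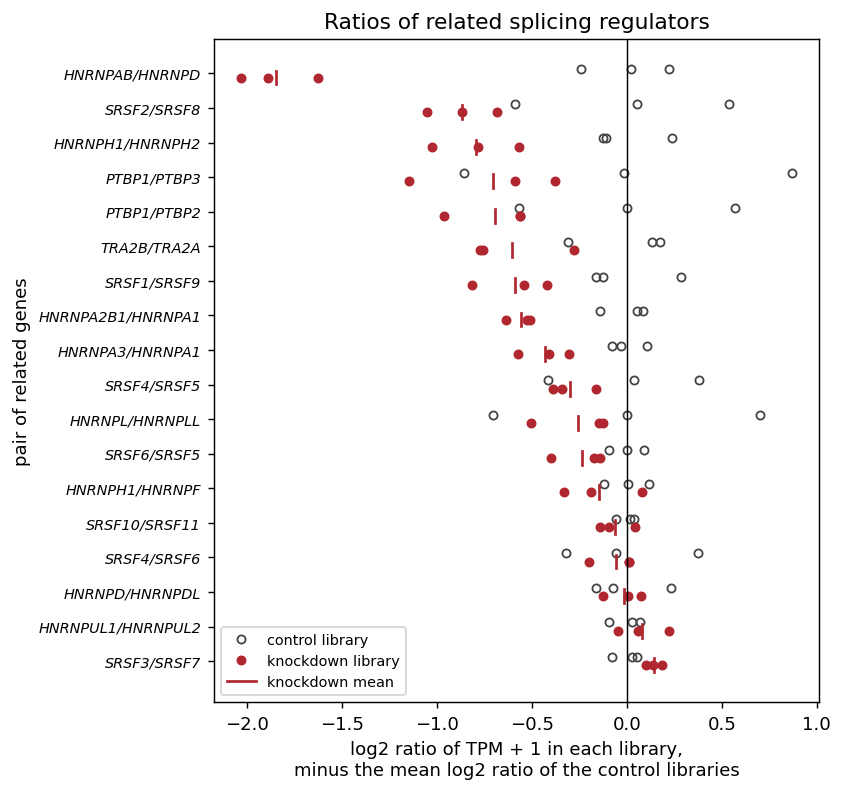
For each of the 18 pairs, points give the log2 ratio of TPM + 1 of the first to the second gene in each library after subtraction of the mean log2 ratio of the 3 control libraries; open points are control, filled points knockdown libraries, and the short line the knockdown mean. *HNRNPAB*/*HNRNPD* lies farthest from 0 with a mean shift of −1.85, and pairs such as *HNRNPD*/*HNRNPDL* at −0.02 scatter around it.

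Other genes of splicing control were examined next. Of 74 gene entries of further splicing regulators, 62 were tested, with 52 lower and 10 higher by sign and a median log2 fold change of −0.28. *MATR3* has separate entries at −0.18 and 0.33, each of them counted. None passed the adjusted threshold in limma. At an unadjusted p under 0.05, limma gave 18 lower and 0 higher, and 19 (30.6%) lay below all control values. Over all genes tested, 9.7% were lower and 7.06% higher at that unadjusted p, and 13.4% lay below. Between 50 and 200 TPM 21.6% of all genes lay below, and at 200 TPM and over 27.4%. *ELAVL1*, which stabilises AU-rich mRNAs, had the most negative log2 fold change of the further regulators, −0.74 (limma, standard error 0.16). It was at 104.23, 96.57 and 81.3 TPM in control and 53.75, 58.82 and 54.67 TPM in knockdown cells. Of 15 kinases, phosphatases and import receptors of SR proteins, 14 were tested, 0 were called at the adjusted threshold and 0 at the unadjusted one, and the median was −0.03. With the GC trend removed 2 of them were called lower and 1 higher, where 819 of all genes were called lower and 470 higher. *SRPK1*, which phosphorylates SR proteins in the cytoplasm ahead of their import, was at 71.12, 52.37 and 43.5 TPM in control and 50.61, 45.81 and 43.03 TPM in knockdown cells, with overlap. *TNPO3*, the import receptor of SR proteins, was lower without overlap (log2 fold change −0.42, standard error 0.18), and the kinase gene *CLK2* was higher without overlap (0.32, standard error 0.17). *DYRK1B*, at a mean of 1.66 TPM in control and 1.45 TPM in knockdown libraries, was also lower without overlap. So 2 of the 14 lay below (14.3%) and 1 above, near the 13.4% and 9.89% of all genes tested.

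Sequence features that the choice by name did not use were then described. The median GC content of the canonical transcript was 42.2% for the tested members and 48.7% for all genes tested. Among the members with the highest GC content, *PTBP1* (57.7%), *HNRNPUL1* (54.9%) and *HNRNPL* (54.3%) lay below all control values and *HNRNPUL2-BSCL2* (57.0%) overlapped. *HNRNPR*, with the lowest at 35.1%, also lay below all control values. From 250 bases before to 50 bases after the RefSeq start, searched on both strands, CCAAT was found in 17 of 35 tested members with a promoter entry (48.6%, against 37.0% of 10093 promoters of tested genes). TATAAA was found in 5 (14.3% against 5.32%), CACGTG in 7 (20.0% against 10.3%) and TGACG in 14 (40.0% against 35.3%). The full element TGACGTCA, which contains TGACG, was in none of the members' windows and in 3.38% of all, and the NRF1 motif in none and 2.39%. In all, 39 of the 44 members had an entry.

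The 7-mer GAGTGAA was searched on the sense strand of the 3′UTR of the canonical transcript, a word chosen with earlier results of these data known. It was present in 6 of 39 tested members (15.4%) and in 12.4% of 11673 tested protein-coding genes. Sites are shown for *HNRNPAB*, which fell, and for *HNRNPA2B1* and *HNRNPA1*, related genes whose groups did not and did overlap, with 11 bases on either side and the word in capitals. On hg38 they lie at chr5:178210664-178210692 on the plus strand for *HNRNPAB*, chr7:26190884-26190912 and chr7:26190752-26190780 on the minus strand for *HNRNPA2B1*, and chr12:54286162-54286190 on the plus strand for *HNRNPA1*.
HNRNPAB: gtttggatatgGAGTGAAcacaattatgt
HNRNPA2B1 site 1: tcaaacattttGAGTGAActaggggtttt
HNRNPA2B1 site 2: agttcatacttGAGTGAAgtgtcttgtct
HNRNPA1: aagctaggaggGAGTGAAatatcagtgat
The *HNRNPAB* site starts at base 52 of a 3′UTR of 540 bases. *HNRNPA0*, *SRSF3* and *SRSF6* also held the word, and *TRA2B* did not. The median log2 fold change was −0.51 for members with it and −0.47 for members without it. Over all protein-coding genes tested it was −0.14 with the word and −0.05 without it, and genes with the word had longer 3′UTRs (median 3326 bases, against 1315 bases over all).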

How the data were processed

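RNA–Seq libraries of 3 control and 3 *RAB30-DT* knockdown SK-Hep1 samples were grouped by their titles. Nothing states that they came from separate cultures, so the p-values measure only the spread between these samples, which may be technical. The authors deposited gene-level TPM values, which their methods derive with fastp, STAR and RSEM, whereas the submitters' processing notes name HISAT2 2.0.5 and hg38. No strand-marking step is described, so reads of overlapping genes on opposite strands cannot be told apart; 25 members overlap another gene, 10 of them one with a mean of at least 10 TPM. Depth and counting error are unknown, because TPM do not hold numbers of reads. Between 20127 and 21675 genes were above 0 TPM per library.

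Gene identifiers were those of GENCODE Release 44, used here for names, positions and canonical transcripts on hg38. The values were analysed as log2(TPM + 1), which understates changes of low genes, for 14020 genes averaging 1 TPM or more, in R 4.3.3 with limma 3.58.1 (lmFit, eBayes with trend, 2-sided, no replicate block) with Benjamini–Hochberg adjustment over all of them. The fit was also run on simulated normal noise drawn independently for each gene. That noise lacked the GC trends of these libraries, so the run cannot show how the fit performs under them. Exact permutation tests used scipy 1.17.1. Members and lists were chosen with earlier results of these data known. Values in every library are given, by rule, for called members, for the 5 lowest and 3 highest log2 fold changes among hnRNP and among SR, TRA2 and PTBP genes, for the 8 most abundant members and for *RAB30-DT*; *PTBP1* and genes outside the members were named after their values were seen. *HNRNPUL2-BSCL2* entered the member list once the annotation was read. Alternatives were pseudocounts of 0.1 and 5, other filters, scalings, variance models and thresholds, array weights, a replicate block, removal of each library's GC trend by loess (span 0.3), and leaving out each library.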

Additional observations from a re-analysis of the deposited data

How the results depend on the processing

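*HNRNPAB* was called lower in every alternative, and no member was called higher in any. The count of members called lower, 2 as reported, was 1 without a filter, with median-of-ratios scaling, with quantile normalization and with eBayes without trend, and 4 at a mean of at least 5 TPM. It was 9 at an adjusted p under 0.1 and 1 under 0.01. It was 22 with array weights (13.8% of all genes), 16 with the replicate block (3.92%), 15 with the GC trend removed and 17 with the GC trend removed and the replicate block. With 1 library left out it ran from 1 to 7: 7 without control replicate 1 and 1 without any other library. *TRA2B* lost its call in 10 alternatives, the stricter threshold included. Over all genes, in both directions, 146 were called as reported, 152 at a mean of at least 5 TPM, 455 at an adjusted p under 0.1, 489 without control replicate 1, 160 without control replicate 3 and 12 to 18 without any other library.

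For the 74 entries of other splicing regulators, 0 were called as reported. With array weights 21 were called, against 3218 of all 14020 genes tested, and with the replicate block 9, against 861. The count was 13 with the GC trend removed, against 1289, and 11 with both, against 1133. It was 2 at an adjusted p under 0.1, against 455. With 1 library left out it was 0 to 1, the 1 without control replicate 1. The members' median log2 fold change, −0.47, was −0.28 with quantile normalization and −0.40 with array weights. The median of all genes was −0.00 and −0.05 in these. Of the 34 members lower by sign, 33 stayed lower under every scaling, weighting and pseudocount. With array weights the log2 fold changes of *HNRNPA1*, *PTBP2* and *PTBP3* were 0.095, −0.067 and −0.064. With 1 library left out they ran from −0.10 to 0.043, from −0.16 to 0.23 and from −0.30 to 0.39; *PTBP3* was −0.072 without knockdown replicate 1 and all of them changed sign without control replicate 3. The cause was not tested.

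The samples were not treated as paired by number, and whether same-numbered libraries belong together is not known. Deviations of same-numbered libraries correlated at 0.41, 0.04 and 0.28. For numbers 1 and 3 these were the highest correlations of those libraries with the other group. Knockdown replicate 2 correlated better with control replicate 3 (0.06) than with its own number. Spearman's rho with GC content rose with replicate number in both groups. With 3 libraries a group and no read numbers, precision is limited by the spread between libraries, and absence of a call does not show an unchanged level.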
